A study of Mus musculus with 3 samples.

Results

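Wif1, Sfrp1, Sfrp2, Frzb, Dkk3 and Dkk2, which encode secreted proteins that restrain Wnt signalling, were followed through single-cell RNA profiles of non-muscle cells of the mouse heart. The members are the rows of these 6 named genes, of 17126 genes listed in all, read in every cell of the 3 deposited tables and then by cell class and by fibroblast cluster. Hearts were minced and digested with collagenase II, cardiomyocytes and debris were spun out at low speed, and the remaining cells were sorted on Lin28 and cKit at the cell surface. Lin28 is an RNA-binding protein usually known from stem cells, and cKit is a receptor tyrosine kinase used to sort progenitor-type cells. The groups are Lin28-positive cKit-positive cells, Lin28-positive cKit-negative cells and Lin28-negative cKit-negative cells, with 1 library each. All 3 groups share the digestion, the spin and the sort; the labels give no strain, age, sex, genotype or number of animals. With 1 library per group there is no test between groups, so values are given with exact 95% intervals that cover counting error only.

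Wnt ligands are lipid-modified secreted proteins that bind Frizzled receptors and the co-receptors Lrp5 and Lrp6, which stabilises beta-catenin and turns on targets such as Axin2. The secreted inhibitors act before the receptor: Wif1 and the secreted Frizzled-related proteins Sfrp1, Sfrp2 and Frzb (also called Sfrp3) bind Wnt ligands, and the Frizzled-related proteins do so through a domain like that of Frizzled. Dickkopf proteins such as Dkk2 bind Lrp5 and Lrp6 instead, and Dkk3 is the divergent member of that family, whose part in Wnt signalling is less settled. In the heart, Wnt signalling is used in valve formation and is engaged again after injury, and fibroblasts are a known source of secreted Frizzled-related proteins.

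In mm10, with the GENCODE vM21 annotation, Wif1 lies at chr10:121033960-121100650 on the plus strand, Sfrp1 at chr8:23411502-23449632 on the plus strand and Sfrp2 at chr3:83766321-83774316 on the plus strand. Frzb lies at chr2:80411970-80447625 on the minus strand, Dkk3 at chr7:112116017-112159057 on the minus strand and Dkk2 at chr3:132085292-132180304 on the plus strand. All 6 are annotated as protein-coding genes. The RefSeq promoter table of build GRCm38.p6 gives 250 bases before and 50 bases after the start for 4 of the 6 members, and it lists neither Sfrp1 nor Dkk3. The promoters of Wif1, Frzb and Dkk2 are shown because these genes had 3 unlike patterns, a small Postn-high fibroblast cluster, most fibroblasts and endocardial-type cells. They are written 5′ to 3′ on the strand of the gene, with matches to TATAAA and GGGCGG on either strand in capitals.
Wif1 (chr10:121033754-121034053, plus strand): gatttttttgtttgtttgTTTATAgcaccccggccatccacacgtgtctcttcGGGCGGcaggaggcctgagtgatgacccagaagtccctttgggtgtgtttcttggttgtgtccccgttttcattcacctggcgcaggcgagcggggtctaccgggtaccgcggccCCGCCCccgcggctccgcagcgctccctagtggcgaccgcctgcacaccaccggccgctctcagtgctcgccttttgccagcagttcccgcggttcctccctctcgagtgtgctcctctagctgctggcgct
Frzb (chr2:80447347-80447646, minus strand): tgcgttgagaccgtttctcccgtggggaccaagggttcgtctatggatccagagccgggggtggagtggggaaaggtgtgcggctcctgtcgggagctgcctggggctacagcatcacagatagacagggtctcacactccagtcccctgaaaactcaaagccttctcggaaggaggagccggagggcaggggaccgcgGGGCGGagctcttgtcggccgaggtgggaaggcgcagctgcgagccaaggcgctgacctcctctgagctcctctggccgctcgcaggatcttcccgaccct
Dkk2 (chr3:132085042-132085341, plus strand): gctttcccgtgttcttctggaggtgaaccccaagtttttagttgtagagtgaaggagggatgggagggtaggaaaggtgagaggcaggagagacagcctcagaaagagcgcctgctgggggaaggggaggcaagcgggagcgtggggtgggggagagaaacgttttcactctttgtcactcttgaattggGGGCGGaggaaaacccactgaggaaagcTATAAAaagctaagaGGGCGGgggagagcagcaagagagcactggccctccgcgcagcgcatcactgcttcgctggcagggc

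The promoters of Wif1 and Frzb are richer in G and C than most: 63.0% and 64.7% of bases, with 25 and 20 CpG pairs, against medians of 52.7% and 7 over 32851 promoters. That of Dkk2 has 57.7% and 11 CpG pairs. The Sfrp2 promoter, at chr3:83766071-83766370 on the plus strand, has 66.0% and 22 CpG pairs. TATAAA lies 32 bases before the start of Dkk2 and, on the reverse strand, 232 bases before that of Wif1; 13.6% of all promoters hold it on either strand. GGGCGG, held by 35.7% of promoters, lies 197 bases before the start of Wif1 and, on the reverse strand, 82 bases before it. It lies 60 and 17 bases before the start of Dkk2 and 51 bases before that of Frzb. The core of TCF/LEF sites, CTTTGNT (in 18.6% of promoters), and the AP-1 motif TGANTCA (in 7.81%) were found in none of the 4 windows. None of these motifs was found in the Sfrp2 window. A match describes the letters of the window and is not a binding site.

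The libraries held 1176 Lin28-positive cKit-positive cells, 681 Lin28-positive cKit-negative cells and 3976 Lin28-negative cKit-negative cells, with 10400648, 7401174 and 34031955 unique molecular identifiers (UMIs) in the same order. Median depth was 8068.5, 9628 and 8630 UMIs per cell. The Lin28-positive cKit-positive library shared 8 cell barcodes with the Lin28-negative cKit-negative library and 1 with the Lin28-positive cKit-negative library, and the cKit-negative libraries shared 0. Cells were grouped by clustering without the members, Kit or the Wnt genes, and clusters were called "-like" from marker lists. Fibroblast-like cells made up 12 of 1176 Lin28-positive cKit-positive cells (1.02%, Clopper-Pearson interval 0.528% to 1.78%), 34 of 681 Lin28-positive cKit-negative cells (4.99%, 3.48% to 6.91%) and 2769 of 3976 Lin28-negative cKit-negative cells (69.6%, 68.2% to 71.1%). Macrophage-like cells made up 51.8%, 40.2% and 0.453% in the same order, endothelial-like cells 36.4%, 35.4% and 23.2%, and cells left unnamed 9.52%, 14.4% and 4.63%. All 10 fibroblast markers were detected in each library, with summed levels of 731.1, 3285 and 48747 UMIs per 1000000 (CPM).

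All 6 secreted inhibitors were lower in the Lin28-positive cKit-negative library than in the Lin28-negative cKit-negative library, and 2 of them were lower again in the Lin28-positive cKit-positive library. A gene was called higher or lower in a pair when its CPM differed at least 1.5-fold, the 95% interval of the ratio excluded 1 and the pair held at least 20 of its UMIs. A member without a row in a table was read as 0 UMIs, and a fold against it was computed at 3 UMIs in that library. Rows may be missing for genes seen in 1 or 2 cells: the Lin28-negative cKit-negative table lists 37 genes with UMIs in 1 cell, 166 in 2 cells and 556 in 3 cells. Folds written "at least" therefore hold for the listed UMIs. Since whole libraries are sums over cells, fewer cells of a type and less RNA per cell cannot be told apart in these levels.

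Wif1, which binds Wnt ligands outside the cell, was not listed in the Lin28-positive cKit-positive table or in the Lin28-positive cKit-negative table, and had 147 UMIs in 19 cells of the Lin28-negative cKit-negative library (4.32 CPM, 3.65 to 5.08). It was at least 10.7-fold lower in Lin28-positive cKit-negative than in Lin28-negative cKit-negative cells, a bound that 1 or 2 unlisted cells as rich in Wif1 as the richest seen, with 33 UMIs, would undo. Absence from 1176 and 681 cells allows shares of up to 0.255% and 0.441% of cells with a UMI (3 cells), or 0.313% and 0.540% by the exact interval. The Lin28-negative cKit-negative library had 0.478% (0.288% to 0.745%). Both exact limits lie within that interval, so the intervals overlap, and a difference in the share of cells was not tested.

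Sfrp1, the member with most UMIs, had 15 UMIs in 9 cells of the Lin28-positive cKit-positive library (1.44 CPM, 0.807 to 2.38). It had 144 UMIs in 29 Lin28-positive cKit-negative cells (19.5 CPM, 16.4 to 22.9) and 7487 UMIs in 2090 Lin28-negative cKit-negative cells (220 CPM, 215 to 225). The 3 intervals do not overlap. Sfrp1 was 11.3-fold lower in Lin28-positive cKit-negative than in Lin28-negative cKit-negative cells (9.59 to 13.4), and 13.5-fold lower in Lin28-positive cKit-positive than in Lin28-positive cKit-negative cells (7.91 to 24.7). A single Lin28-positive cKit-negative cell held 38 of that library's 144 Sfrp1 UMIs.

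Frzb, the Frizzled-related protein first known from cartilage, had 16 UMIs in 6 Lin28-positive cKit-positive cells (1.54 CPM, 0.879 to 2.50) and 43 UMIs in 23 Lin28-positive cKit-negative cells (5.81 CPM, 4.21 to 7.83). The Lin28-negative cKit-negative library had 3891 UMIs in 1796 cells (114 CPM, 111 to 118). Again the intervals are apart: Frzb was 3.78-fold lower in Lin28-positive cKit-positive than in Lin28-positive cKit-negative cells (2.08 to 7.18). Between Lin28-positive cKit-negative and Lin28-negative cKit-negative cells the interval of its fold, 14.6 to 27.2 lower, lies above that of Sfrp1.

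Sfrp2 was not listed in the Lin28-positive cKit-positive table, had 3 UMIs in 3 Lin28-positive cKit-negative cells (0.405 CPM) and 430 UMIs in 223 Lin28-negative cKit-negative cells (12.6 CPM, 11.5 to 13.9). It was 31.2-fold lower in Lin28-positive cKit-negative than in Lin28-negative cKit-negative cells, with a wide interval of 10.6 to 152.

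Of the Dickkopf members, Dkk3 had 10 UMIs in 4 Lin28-positive cKit-positive cells (0.961 CPM), 8 UMIs in 7 Lin28-positive cKit-negative cells (1.08 CPM) and 571 UMIs in 311 Lin28-negative cKit-negative cells (16.8 CPM, 15.4 to 18.2). It was 15.5-fold lower in Lin28-positive cKit-negative than in Lin28-negative cKit-negative cells (7.83 to 36.1), while the Lin28-positive libraries hold too few of its UMIs to be compared (ratio 0.890, 0.316 to 2.59). Dkk2 had 9 UMIs in 2 Lin28-positive cKit-positive cells, 8 of them in 1 cell (0.865 CPM). It was not listed in the Lin28-positive cKit-negative table and had 46 UMIs in 17 Lin28-negative cKit-negative cells (1.35 CPM, 0.990 to 1.80). Dkk2 was at least 3.33-fold lower in Lin28-positive cKit-negative than in Lin28-negative cKit-negative cells.

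**Figure D1:**
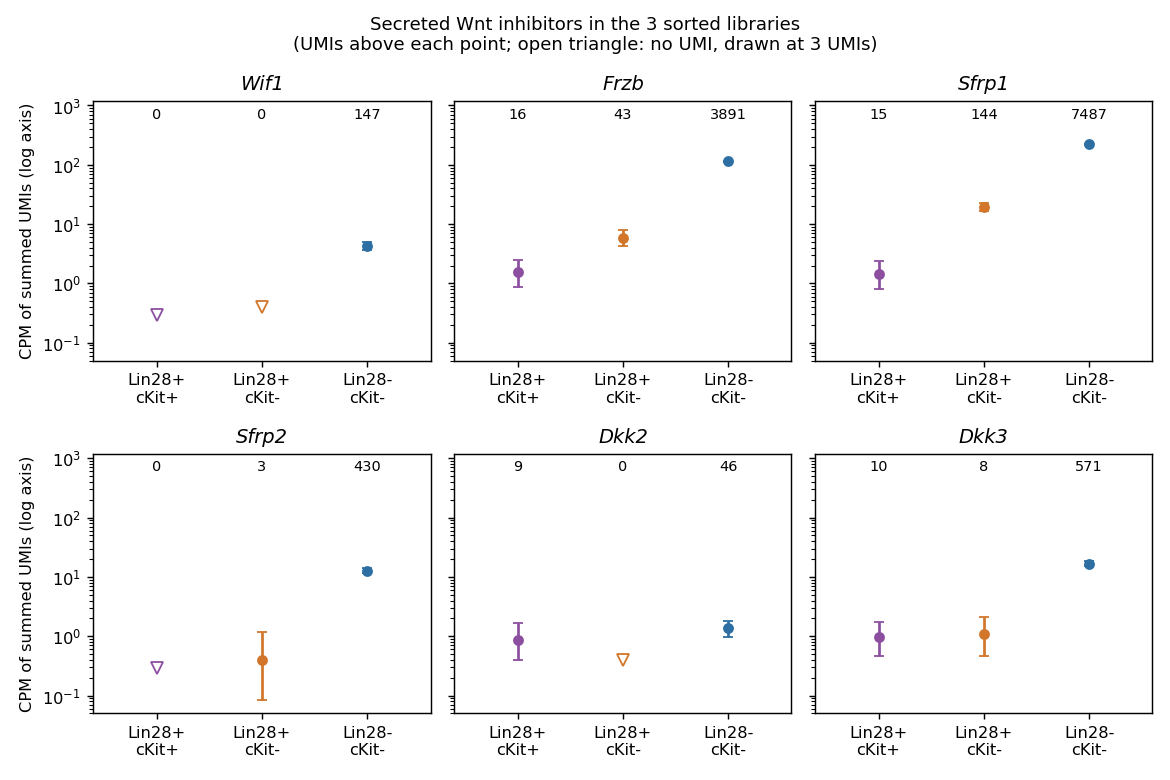
Level of each of the 6 secreted inhibitors in the 3 libraries, from left to right Lin28-positive cKit-positive, Lin28-positive cKit-negative and Lin28-negative cKit-negative, in CPM on a log axis with exact Poisson 95% intervals; UMIs are printed above, and an open triangle marks a gene without a listed UMI, drawn at 3 UMIs. The Lin28-negative cKit-negative library is the highest of the 3 in every panel, from 1.35 CPM for Dkk2 to 220 CPM for Sfrp1, and Wif1 has a UMI in that library alone.

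Between the cKit-negative libraries 6 of 6 members were called lower, where 25.4% of the 13765 genes measured were called lower. The median log2 ratio of the members was -3.73, with Wif1 and Dkk2 set at their bounds, against -0.08 over all genes. The 10 fibroblast markers, all called lower, had a median of -3.56, close to that of the members. The 10 macrophage markers were all called higher, with summed levels of 14566 CPM in Lin28-positive cKit-negative and 103.6 CPM in Lin28-negative cKit-negative cells; the part of cell makeup in the members' ratios was not tested in whole libraries. Between the Lin28-positive libraries, 2 of the 2 members with enough UMIs were called lower, where 8.02% of 12200 genes were, and the 10 fibroblast markers were all lower too, with a median of -2.40 against -0.10 over all genes. Scaling by TMM moves every log2 ratio between the Lin28-positive libraries by 0.11, and those between the cKit-negative libraries by 0.01.

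Most molecules of 5 of the 6 genes lay in fibroblast-like cells. In the Lin28-negative cKit-negative library these cells held 98.6% of the Wif1 UMIs, 97.2% for Sfrp1, 96.7% for Sfrp2, 97.1% for Frzb and 96.5% for Dkk3. Dkk2 went against this: 41.3% of its UMIs were in fibroblast-like cells and 58.7% in endothelial-like cells. In the Lin28-positive cKit-negative library the 34 fibroblast-like cells held 132 of 144 Sfrp1 UMIs, 41 of 43 Frzb UMIs, 3 of 3 Sfrp2 UMIs and 6 of 8 Dkk3 UMIs. In the Lin28-positive cKit-positive library the 12 fibroblast-like cells held 10 of 15 Sfrp1 UMIs and 15 of 16 Frzb UMIs, whereas 8 of 10 Dkk3 UMIs and 8 of 9 Dkk2 UMIs were in endothelial-like cells.

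Within fibroblast-like cells, with their UMIs summed per library, the libraries were closer to each other. The 12 Lin28-positive cKit-positive fibroblast-like cells had 95.6 CPM of Sfrp1 (45.8 to 176), the 34 Lin28-positive cKit-negative ones 312 CPM (261 to 370) and the 2769 Lin28-negative cKit-negative ones 259 CPM (253 to 265). Of the 132 Sfrp1 UMIs behind the 312 CPM, 38 were in 1 cell. Levels of Frzb were 143 CPM (80.2 to 236) in the Lin28-positive cKit-positive, 96.8 CPM (69.5 to 131) in the Lin28-positive cKit-negative and 135 CPM (130 to 139) in the Lin28-negative cKit-negative fibroblast-like cells. The Frzb intervals of both Lin28-positive libraries overlap that of the Lin28-negative library, whereas the Sfrp1 intervals do not all overlap. With fewer than 50 fibroblast-like cells in either Lin28-positive library these values are given side by side and no call is made. Sfrp2 was at 0, 7.08 and 14.8 CPM, Dkk3 at 9.56, 14.2 and 19.6 CPM, and Dkk2 and Wif1 had no UMI in the fibroblast-like cells of either Lin28-positive library.

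Within the Lin28-negative cKit-negative library, 5 members were called higher in fibroblast-like than in endothelial-like cells, where 21.4% of 12776 genes were called higher. The folds were 10.8 for Wif1 (2.93 to 89.8), 18.6 for Sfrp1 (14.4 to 24.6), 20.6 for Sfrp2 (7.01 to 100.4), 15.6 for Frzb (11.3 to 22.3) and 11.7 for Dkk3 (5.64 to 29.2). Dkk2 was 9.56-fold lower in fibroblast-like cells (5.12 to 18.2), where 24.3% of genes were called lower.

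Fibroblast transcripts were also counted in cells of other classes. They are called free RNA here, although free RNA and doublets were not told apart. In the Lin28-negative cKit-negative library the summed fibroblast markers stood at 8.29% of their library level in endothelial-like cells. In the 18 macrophage-like cells they stood at 6.21%. The Lin28-positive cKit-positive library had 68.4% in endothelial-like and 13.5% in macrophage-like cells. In the Lin28-negative cKit-negative library Sfrp1 stood at 6.31% and 6.21% of its library level in endothelial-like and macrophage-like cells. Frzb stood at 7.54% and 17.9%, the latter from 3 UMIs, and Dkk3 at 9.99% and 81.5%, the latter from 2 UMIs. The shares of Sfrp1 in both classes, from 2 UMIs in macrophage-like cells, and of Frzb in endothelial-like cells lie close to those of the fibroblast markers. Their source was not tested. Sfrp1 had a UMI in 71.5% of fibroblast-like, 5.43% of endothelial-like and 2 of 18 macrophage-like cells, at median depths of 10125, 4065 and 6638.5 UMIs. Frzb had one in 62.5%, 2.71% and 3 of 18 cells. Dkk3 had one in 10.7%, 0.651% and 2 of 18 cells, so its share in fibroblast-like cells is not above that in the few macrophage-like cells (11.1%, 1.38% to 34.7%). Sfrp2 was seen in 7.66%, 0.326% and 0 of 18 cells, Wif1 in 0.650%, 0.109% and 0 of 18 cells, and Dkk2 in 0.397%, 0.651% and 0 of 18 cells. After thinning each cell to 1000 UMIs, 20.8% of fibroblast-like and 1.10% of endothelial-like cells had an Sfrp1 UMI, and 12.8% and 0.329% a Frzb UMI.

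Endothelial-like cells are numerous enough in both cKit-negative libraries to be compared, and 3 of the 3 members measured there were lower in Lin28-positive cKit-negative cells, where 6.92% of 10286 genes were. Sfrp1 had 2 UMIs in Lin28-positive cKit-negative and 58 in Lin28-negative cKit-negative endothelial-like cells (1.02 and 13.9 CPM), 13.7-fold lower (3.61 to 115). Frzb had 0 and 36 UMIs, at least 5.65-fold lower, and Dkk2 0 and 27 UMIs, at least 4.24-fold lower. Fibroblast markers moved with them: all 10 were lower, with summed levels of 212 CPM in Lin28-positive cKit-negative and 4043 CPM in Lin28-negative cKit-negative endothelial-like cells. These sums are 6.44% and 8.29% of the whole-library level in the same order. When fibroblast RNA was subtracted in that proportion, Sfrp1 and Frzb fell to 0 UMIs in both libraries and could not be compared. The subtraction fixed this, since in Lin28-negative cKit-negative endothelial-like cells they stood at 6.31% and 7.54% of library level, below 8.29%. Dkk2 remained called, at least 4.26-fold lower. The endothelial-like cells differed in makeup between the libraries: endocardial-type cluster 9, which holds most Dkk2, made up 11 of 241 Lin28-positive cKit-negative and 106 of 921 Lin28-negative cKit-negative endothelial-like cells. All 6 endocardial markers were lower with it, at 443.6 CPM in Lin28-positive cKit-negative and 1208 CPM in Lin28-negative cKit-negative endothelial-like cells (median log2 ratio -1.64), and their part in the Dkk2 value was not tested.

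The fibroblast-like cells of the Lin28-negative cKit-negative library fell into 7 clusters. Cluster 0 (785 cells) was led by Ogt, Ndufa4l2 and Rsrp1, each under 2-fold higher than in other fibroblast-like cells. Cluster 2 (738 cells) was led by the heat shock genes Hspa1a (3.18-fold) and Hspa1b (2.52-fold) and by Id1, and cluster 4 (557 cells) by Inmt, Igfbp3 and Apod. Cluster 7 (282 cells) was led by Cxcl2, Ptx3 and Tmem100 and had 9 of 10 markers of Pi16-type adventitial fibroblasts higher, where 5.12% of genes were. Cluster 13 (108 cells), led by Tmem100, Efhd1 and Cst6, had 10 of 10 higher, where 6.69% of genes were. Cluster 8 (190 cells) was led by Milr1, Ifitm1 and Hsd11b1. Cluster 11 (109 cells) was led by Wif1 itself, Cilp and Ltbp2. Each cluster was set against all other fibroblast-like cells, as a description and not as a test.

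Cluster 11, called the Postn cluster here, had markers of activated and of tendon-type cells. Of the 7 measured markers of activated fibroblasts 6 were higher there, namely Postn, Cilp, Meox1, Thbs4, Ltbp2 and Acta2, where 6.37% of all genes were higher, with a summed level of 1496 CPM in cluster 11 and 159 CPM in other fibroblast-like cells. Of the 7 measured markers of valve, annulus and tendon-type cells 5 were higher, namely Fmod, Comp, Cytl1, Prg4 and Scx, at 889 and 149 CPM. Of other fibroblast lists, 4 of 10 Pi16-type adventitial markers were higher (Pi16, Mfap5, Igfbp6 and Sema3c) and 0 lower. Of 7 Inmt-type markers 2 were higher and 3 lower, and of 7 G0s2-type markers 1 was higher and 4 lower. Of 10 general fibroblast markers 1, Tcf21, was lower, and neither of 2 measured mesothelial markers was higher. Before this comparison 10 cells of the cluster, 4 of them in this library, had been split off as mesothelial-like. The lack of raised mesothelial markers follows in part from that step and is not a separate result. Cilp, a matrix protein of cartilage and scar, had 179 CPM in cluster 11 and 2.80 CPM elsewhere, and Ltbp2, which belongs to the fibrillin-binding proteins, had 103 and 2.43 CPM.

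Wif1 was nearly confined to that cluster. It had 138 of its 147 UMIs in 11 of the 109 cells of cluster 11, or 102 CPM (85.8 to 121), against 0.262 CPM in other fibroblast-like cells, a 390-fold difference (184 to 989), where 6.37% of 12323 genes were higher in cluster 11. In each of the other clusters of at least 30 cells it was at or below 1.33 CPM. In clusters 0, 2, 4, 7, 8 and 13 it was called lower than in other fibroblast-like cells, where 4.63%, 4.46%, 5.77%, 5.69%, 4.34% and 5.19% of genes were. Cluster 11, with 138 of the 145 Wif1 UMIs of fibroblast-like cells, is part of each of these references. The calls of lower therefore restate its peak and are not separate results. The level rests on few cells, since 98 of the 109 cells in the cluster had no Wif1 UMI.

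Dkk3 was highest in the same cluster. It had 210 UMIs in 57 of 109 cells of cluster 11, or 155 CPM, against 12.7 CPM in other fibroblast-like cells, a 12.2-fold difference (10.2 to 14.5). The next clusters in order, 7 and 4, had 18.2 and 17.9 CPM. Dkk3 was lower in cluster 8, with 1.20 CPM against 20.8 elsewhere (a ratio of 0.0578), and in cluster 2 with 8.67 against 23.8 CPM (0.365). Cluster 0 was called lower too, with 12.2 against 21.7 CPM (0.563). In clusters 8, 2 and 0, 4.34%, 4.46% and 4.63% of genes were called lower. Each of these references includes cluster 11, which held 210 of the 551 Dkk3 UMIs of fibroblast-like cells. The level of cluster 0 is close to the 12.7 CPM of fibroblast-like cells outside cluster 11, so its call restates the peak in cluster 11.

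Sfrp2 was higher in cluster 11 as well, with 40.0 CPM against 13.5 CPM elsewhere, 2.95-fold (2.18 to 3.94). Its 54 UMIs there came from 12 cells, and 20 of them from a single cell. It was lower in cluster 2, with 9.32 against 16.9 CPM (a ratio of 0.552).

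Sfrp1 peaked elsewhere, in the Inmt cluster. It stood at 393 CPM in cluster 4 against 221 CPM in other fibroblast-like cells, 1.77-fold (1.69 to 1.86), where 2.93% of genes were higher. It was lower in cluster 2, with 167 against 294 CPM (a ratio of 0.569, 0.536 to 0.605), and in cluster 8, with 152 against 266 CPM (0.574, 0.505 to 0.651). Clusters 7, 13, 11 and 0 lay between, at 305, 267, 264 and 238 CPM, and neighbours in that order have overlapping intervals.

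Frzb was called in 1 of the 7 clusters, the fewest among the 5 members with a call. It was lower in cluster 7, at 69.2 CPM against 145 CPM elsewhere (a ratio of 0.478, 0.420 to 0.542), where 5.69% of genes were lower. Clusters 0 and 8 were highest, each at 178 CPM, with ratios of 1.46 and 1.35 that stay below 1.5. Clusters 2, 11, 4 and 13 had 149, 139, 107 and 98.8 CPM. Sfrp1 and Frzb thus had unlike orders among the fibroblast clusters, cluster 4 leading for Sfrp1 and clusters 0 and 8 for Frzb.

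**Figure D2:**
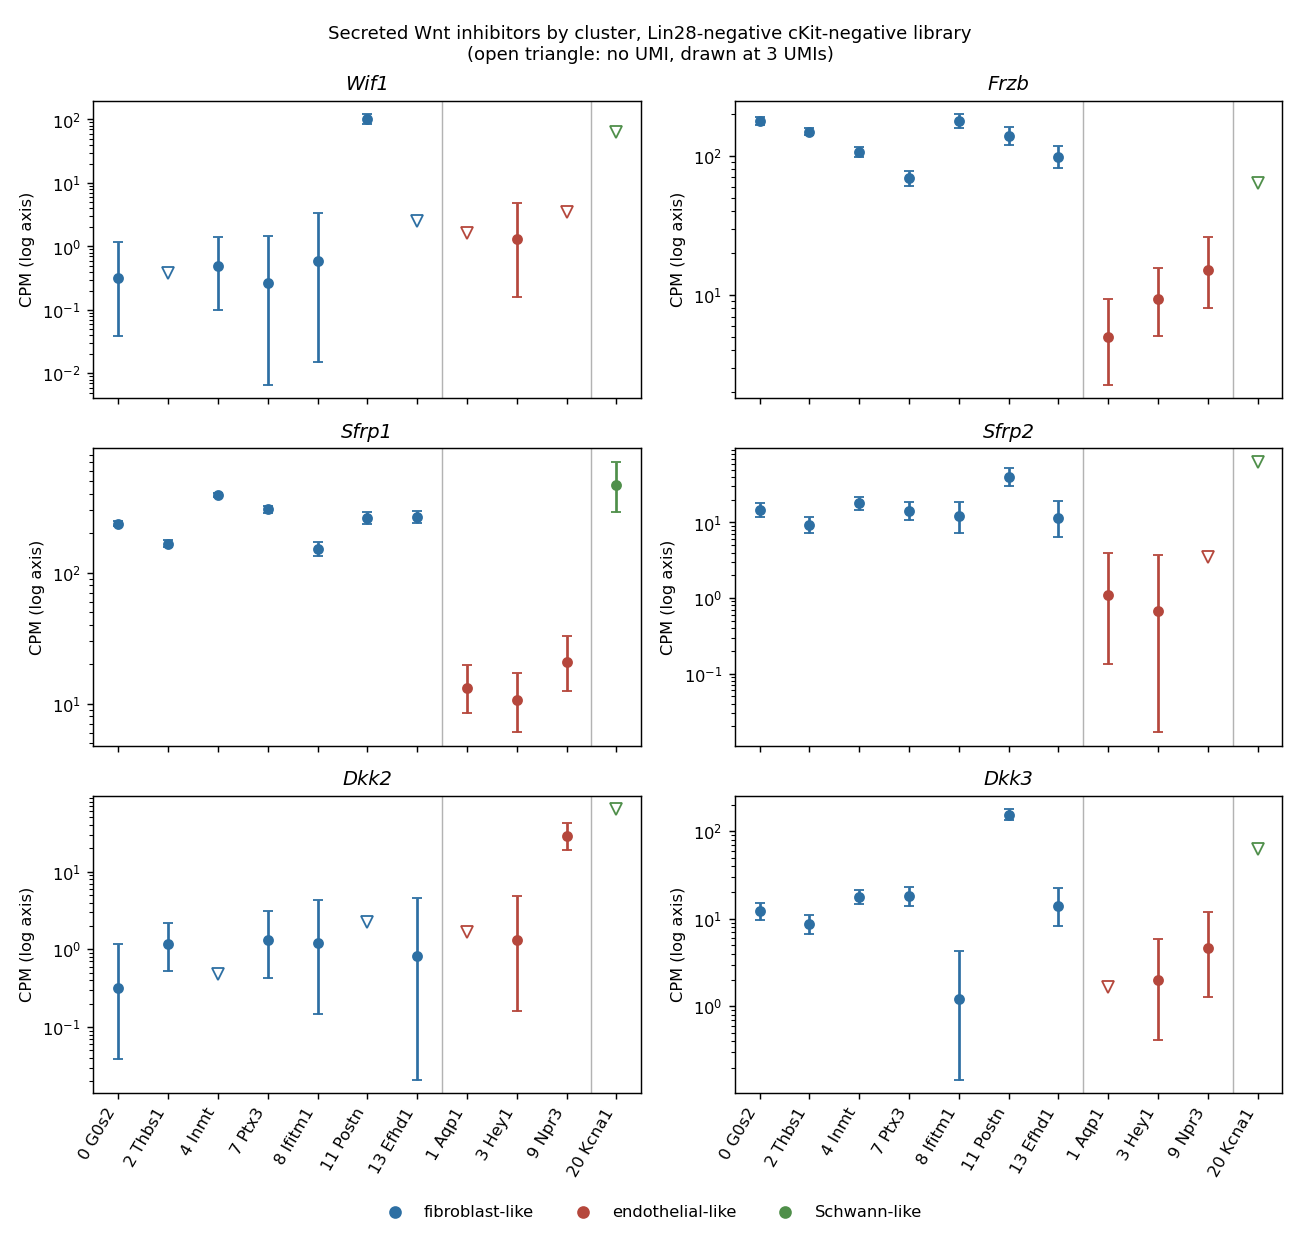
Level of each of the 6 members in clusters of the Lin28-negative cKit-negative library, in CPM with exact Poisson 95% intervals, fibroblast-like clusters left of the endothelial-like and Schwann-like ones, each labelled with a gene high there among all clusters. Wif1 (102 CPM) and Dkk3 (155 CPM) stand out in the Postn cluster, Sfrp1 in the Inmt cluster (393 CPM) and the Schwann-like cells (465 CPM), and Dkk2 in the Npr3 cluster (29.1 CPM).

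Outside fibroblasts, Dkk2 and Sfrp1 had levels of their own. Dkk2 was at 29.1 CPM (18.9 to 43.0) in endothelial-like cluster 9, whose leading genes Npr3 and Nrg1 mark the endocardium, and at or below 1.33 CPM in each of the other clusters of at least 30 cells. Its 25 UMIs there came from 5 of 106 cells, with 7, 7, 7, 3 and 1 UMIs. In the Lin28-positive cKit-positive library the cell with 8 Dkk2 UMIs belongs to the same cluster. Fibroblast-like cells had 19 Dkk2 UMIs in 11 of 2769 cells, so in these data Dkk2 was an endocardial-type more than a fibroblast transcript. Sfrp1 had 22 UMIs in 7 of 11 Schwann-like cells, or 465 CPM (291 to 704), a level whose interval reaches that of the Inmt fibroblast cluster. The relative Sfrp5, which is not among the 6, had 7 UMIs in the Lin28-negative cKit-negative library, all in 3 Schwann-like cells (148 CPM, 59.5 to 305).

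A fibroblast-like cell usually carried UMIs of 1 or 2 members. Of 2769 cells, 277 (10.0%) had none, 1036 (37.4%) had 1, 1177 (42.5%) had 2, 260 (9.39%) had 3 and 19 (0.686%) had 4. Wif1 and Dkk3 met in the same cells: 12 of 18 fibroblast-like Wif1 cells had a Dkk3 UMI (66.7%, 41.0% to 86.7%), against 10.3% of those without Wif1. After thinning to 1000 UMIs these were 4 of 8 cells and 1.48%. Sfrp1 was seen in 80.2% of Sfrp2 cells and 70.8% of cells without Sfrp2, and in 72.8% of Frzb cells and 69.3% of cells without Frzb. Thinning widened the gap for Sfrp2, to 42.9% (26.3% to 60.6%) against 20.5%, and turned it round for Frzb, to 16.9% (13.1% to 21.3%) against 21.3%. Such shares move with depth: in fibroblast-like cells split into 3 equal groups by UMIs, from shallow to deep, Sfrp1 was seen in 54.2%, 78.1% and 82.2%.

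The 19 cells with a Wif1 UMI were of 2 sorts. Of these, 10 lay in cluster 11 and had 33, 30, 23, 14, 9, 8, 7, 5, 5 and 3 UMIs of Wif1. An endothelial-like cell had 2, and 8 cells spread over clusters 0, 4, 7, 8 and 11 had 1 each. Their median depth was 11863 UMIs, against 10122 UMIs in the 2751 fibroblast-like cells without Wif1.

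**Figure D3:**
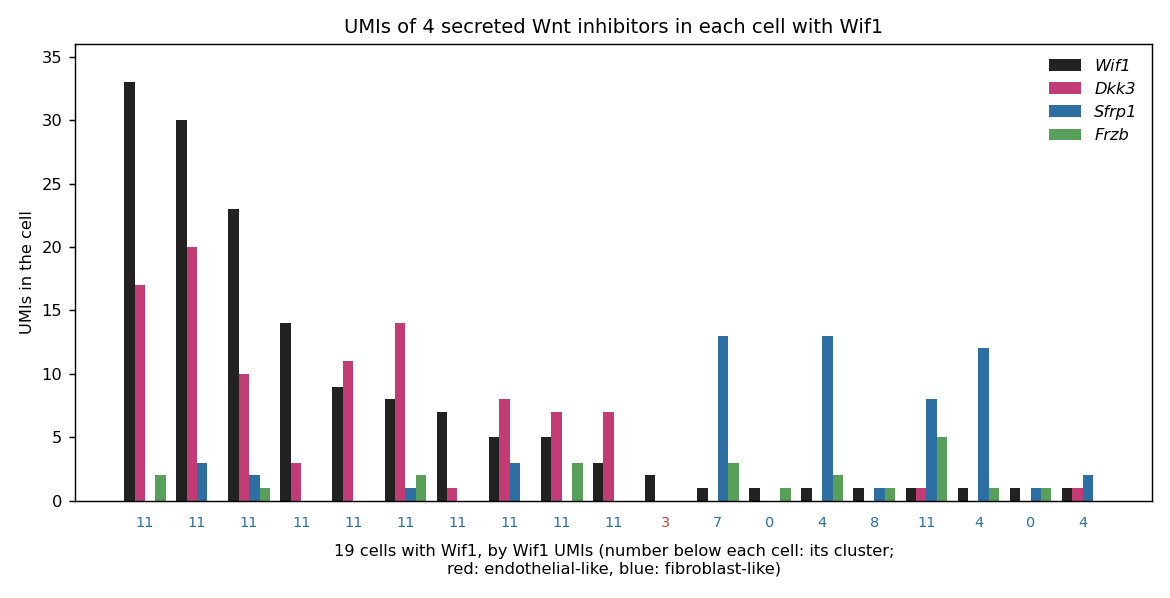
UMIs of Wif1, Dkk3, Sfrp1 and Frzb in each of the 19 cells with a Wif1 UMI, ordered by Wif1 UMIs, with the cluster number below each cell. The 10 cells of cluster 11 with the most Wif1 UMIs all hold Dkk3 (1 to 20 UMIs) and at most 3 Sfrp1 UMIs, while cells with 1 Wif1 UMI reach 13 Sfrp1 UMIs.

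Dkk3 was the member that was higher in cells with Wif1. It had 478 CPM in Wif1 cells (389 to 582) and 16.2 CPM in fibroblast-like cells without Wif1, 29.6-fold higher (23.6 to 36.8), where 5.41% of 12326 genes were higher. Its 100 UMIs came from 12 of 19 cells, and the fold was 25.4 without the cell that held most. Sfrp1 stood at 282 and 259 CPM (a ratio of 1.09, 0.830 to 1.41) and Frzb at 105 and 135 CPM (0.781, 0.489 to 1.18), neither past 1.5-fold. Sfrp2 had 0 UMIs in Wif1 cells and 416 in the others, a gap within counting error, with an upper bound of the ratio of 1.19.

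The Sfrp1 value averages over unlike cells. In the 11 cells with at least 2 Wif1 UMIs Sfrp1 was lower, at 75.5 CPM (a ratio of 0.292, 0.133 to 0.555, from 9 UMIs), and so was Frzb, at 67.1 CPM (0.498, 0.215 to 0.983, from 8 UMIs). Dkk3 was at 822 CPM there (a ratio of 50.9, 40.5 to 63.4). These 11 cells include the endothelial-like cell, which had 0 UMIs of Sfrp1, Frzb and Dkk3. That cell adds 5904 UMIs to the total and none of Frzb, and the Frzb interval ends close to 1, at 0.983. Without that cell's UMIs in the total the interval would reach past 1, so the Frzb call rests on counting that cell. The 8 cells with 1 Wif1 UMI had 556 CPM of Sfrp1, 156 CPM of Frzb and 22.2 CPM of Dkk3.

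Within cluster 11 alone, 11 cells with Wif1 could be set against 98 without, at median depths of 12738 and 12506 UMIs. Dkk3 had 747 CPM with Wif1 and 91.1 CPM without, 8.20-fold higher (6.19 to 10.8), where 5.28% of 6737 genes were higher. It was seen in 11 of 11 cells with Wif1 and 46 of 98 cells without. Sfrp1 was lower, at 128 against 279 CPM (a ratio of 0.460, 0.265 to 0.747), where 5.15% of genes were lower, and Sfrp2 had 0 against 54 UMIs. With 20 of those 54 UMIs in 1 cell, Sfrp2 was not called without that cell (0 against 34 UMIs, upper bound of the ratio 1.04). Frzb, at 98.1 against 144 CPM (0.683, 0.357 to 1.20), was not called.

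Of the other leading genes of Wif1 cells, Postn, a matrix protein of activated fibroblasts, was 28.1-fold higher in Wif1 cells than in fibroblast-like cells without (24.5 to 32.2), with 262 UMIs in 12 cells. Pdlim3 and Csrp2, LIM-domain proteins of the actin cytoskeleton, were 26.5- and 14.5-fold higher, and Tagln, an actin-binding protein of smooth muscle, was 23.3-fold higher. Igfbp5, Prg4 (lubricin), Mfap4 and Vcan (versican), all secreted, were 19.1-, 23.8-, 6.01- and 3.99-fold higher. Without the cell that held most of each, Prg4 was 2.73-fold, Igfbp5 6.08-fold, Tagln 14.2-fold and Ctgf 1.65-fold higher. Of the smooth muscle markers Acta2 (9.70-fold) and Tagln were higher, while Myh11, Cnn1 and Mylk had 0 UMIs in Wif1 cells and Smtn had a ratio of 0.344 that was not called. Vim, an intermediate filament protein, was 3.41-fold higher and present in 19 of 19 cells; Dbi was 6.58-, Meox1 4.48-, Tgfbi 3.64- and Ctgf 3.63-fold higher. Fabp4, which binds fatty acids, was 4.50-fold higher only through the endothelial-like cell, and its ratio was 0.758 without that cell. Within cluster 11, Pdlim3 (11.1-fold), Dbi (9.69-fold), Igfbp5 (5.85-fold), Tagln (4.11-fold), Csrp2 (3.23-fold), Postn and Vim (3.20-fold each) and Vcan (3.12-fold) were still higher with Wif1, as was Tgfbi (1.78-fold). In Wif1 cells 158 of 222 Igfbp5 UMIs and 24 of 56 Tagln UMIs were in 1 cell each, and the folds within the cluster were not recomputed without it. Mfap4, Ctgf and Meox1, at ratios of 0.878, 0.718 and 1.36, were not called there, and Fabp4 was lower (0.423).

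Another 15 genes led in the lower direction. Of these Gadd45a, induced by DNA damage, was 8.44-fold lower, the glutathione transferase Gsta3 4.61-fold lower and the matrix protein Smoc2 2.95-fold lower. The chemokine Ccl7 was 7.38-fold lower, with its 6 UMIs in 1 Wif1 cell, and the chemokine Ccl2, also lower, had 7.54 CPM with Wif1 and 214 CPM without among the cells of cluster 11. The others by the same rule were Sfxn1 (4.28-fold), Ebf2 (4.17), Pla1a (4.13), Ssh2 (3.99), Pgf (3.97), Plekha6 (3.87), Col5a3 (3.52), Anxa3 (3.14), Pcsk6 (2.99) and Jup (2.89-fold lower). Within cluster 11 all of these except Ccl7 and Pgf were lower with Wif1. Cilp, a marker of the cluster, was lower too, at 15.1 CPM with Wif1 and 197 CPM without (a ratio of 0.0766), in contrast to Postn, at 1969 and 615 CPM. Of the other activated and tendon-type markers, Comp (0 against 40 UMIs), Thbs4 (0 against 39 UMIs) and Fn1 (a ratio of 0.188) were also lower. Acta2 (2.71-fold) and Prg4 (3.57-fold) were higher, Prg4 with 112 of its 125 UMIs of Wif1 cells in 1 cell. Fmod, Cytl1, Sox9, Meox1 and Ltbp2 were not called, and Scx had too few UMIs.

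Marker lists place most Wif1 cells among fibroblasts, with 1 exception. The 10 fibroblast markers summed to 42431 CPM in Wif1 cells and 57266 CPM in fibroblast-like cells without, with Dpt higher and Pdgfra and Gsn lower. Scx, a transcription factor of tendon and valve cells, had 13 UMIs in 4 Wif1 cells, 62.2 CPM against 0.466 CPM. Endothelial markers stood at 8299 CPM in the endothelial-like Wif1 cell, from 49 UMIs, at 315 CPM in the 18 fibroblast-like Wif1 cells and at 220 CPM in fibroblast-like cells without Wif1. Macrophage and mesothelial markers were at 0 in all 19 cells.

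Across the wider Wnt pathway, most called genes were lower in Lin28-positive cKit-negative than in Lin28-negative cKit-negative cells, as fibroblast genes were. Of 88 measured genes in 6 Wnt lists 7 were higher and 51 lower, where 22.1% and 25.4% of all genes were, with a median log2 ratio of -0.94. Among other extracellular inhibitors 0 were higher and 6 of 8 lower: Sfrp4 and Apcdd1 by at least 3.84-fold each and Sost by at least 1.96-fold, while Igfbp4 had 262 against 666 CPM (a ratio of 0.393). Among ligands and their secretion 0 were higher and 8 of 11 lower, led by Wnt5b (12.0-fold), Wnt6 (9.90-fold), Wnt9a (9.13-fold) and Wnt11 (7.68-fold). The list medians were -1.08 and -2.49.

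Receptors were mixed, with 3 higher and 16 of 23 lower and a median of -1.46. Gpc6, a heparan sulphate proteoglycan, was 9.83-fold lower, and Ror1 and Ptk7, co-receptors of beta-catenin-independent signalling, were 8.95- and 8.92-fold lower. Sdc4, a syndecan, was 5.47-fold higher (5.19 to 5.77). Fzd4 had a ratio of 0.885, Lrp6 of 1.07 and Lrp5 of 1.39, all short of a call. Of the R-spondin list, whose proteins amplify Wnt signals, 0 were higher and 2 of 3 lower, Lgr4 and Rspo1.

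Intracellular components were the flattest list, with 1 higher (Tle4, a co-repressor, 3.08-fold) and 9 of 26 lower, a median of -0.28 and a Ctnnb1 ratio of 1.37 that was not called. Of Wnt target genes 3 were higher and 12 of 21 lower. Axin2 had 3 UMIs in Lin28-positive cKit-negative and 49 in Lin28-negative cKit-negative cells, a ratio of 0.282 (0.0561 to 0.872). Twist2, Sox9 and Twist1, transcription factors of mesenchyme and cartilage, were 20.1-, 15.3- and 11.7-fold lower, and Cd44, a hyaluronan receptor, was 4.73-fold higher. In endothelial-like cells alone, 2 of 60 measured genes were higher (Lrp5 1.60-fold and Ppard 1.85-fold) and 20 lower, where 3.96% and 6.92% of all genes were, with a median of -0.11. The fibroblast markers were lower in the same cells, as given above, and after subtraction of free RNA 2 of 54 measured Wnt genes were higher and 15 lower. Of the components followed in every comparison, Ctnnb1 (1.29), Lrp6 (1.24) and Fzd4 (1.05) were not called.

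Between the Lin28-positive libraries 1 of 65 measured Wnt genes was higher in Lin28-positive cKit-positive cells, Bambi (1.64-fold), a decoy receptor and Wnt target, and 14 were lower, where 1.77% and 8.02% of all genes were, with a median of -0.29. Wisp2 (40.8-fold lower), Gpc3 (12.3-fold lower) and Fzd2 (at least 9.84-fold lower) led. Lrp5 was lower (a ratio of 0.623), Ctnnb1 was not called (0.837), and Axin2 had 6 against 3 UMIs, too few to compare.

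In Wif1 cells 11 of 81 measured Wnt genes were higher and 3 lower than in fibroblast-like cells without Wif1, where 5.41% and 2.43% of all genes were. The median log2 ratio was 0.34, against 0.29 over all genes, and both are raised by genes without a UMI in the 19 cells, which were set at 3 UMIs. Rspo3, an R-spondin, had 16 UMIs in 7 Wif1 cells, all of cluster 11, against 15 UMIs in 14 cells without Wif1 (76.5 against 0.538 CPM, 142-fold higher, 65.9 to 309). Wnt5a, a ligand of beta-catenin-independent signalling, was 3.30-fold higher (1.32 to 6.89, in 6 cells), a call lost without 1 cell with 2 of its 7 UMIs (2.50, 0.805 to 5.90), and Wls, which carries Wnt ligands to the cell surface, 1.71-fold higher, with UMIs in 17 of 19 cells. Among receptors Fzd2 (2.47-fold) and Sdc4 (1.97-fold) were higher, and Fzd4 (0.535), Lrp5 (0.511) and Lrp6 (0.802) were not called.

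Of the target genes Bambi (4.53-fold, in 13 cells), Cd44 (4.50-fold) and Sox4 (1.86-fold) were higher, Sox4 through 1 cell with 10 of its 18 UMIs (0.890 without it), and Wisp2 (a ratio of 0.202), Myc (0.325) and Jun (0.520) were lower. Bcl9, a beta-catenin co-activator, was 4.66-fold higher. Axin2 (2 against 30 UMIs, a ratio of 8.89, 1.03 to 35.0) and Wnt2 (2 against 24 UMIs, 11.1) passed the call rule, but in each case both UMIs were in 1 cell. Ctnnb1, at 167 against 132 CPM (1.27, 0.880 to 1.76), was not called, nor was any of the 6 measured other inhibitors. Within cluster 11, Bambi was at 173 CPM with Wif1 and 23.8 CPM without (7.29-fold, 4.03 to 13.1), and Wisp2 had 0 against 483 UMIs. Cd44 (2.35-fold) and Sdc4 (2.32-fold) were also higher and Myc lower (0.161), whereas Wls (1.54), Fzd2 (1.19), Sox4 (0.890) and Jun (0.693) were not called, and Wnt5a and Bcl9 had too few UMIs. Rspo3 had a UMI in 7 of 11 cells with Wif1 and 1 of 98 without, with 17 UMIs in all, under the minimum for a call.

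**Figure D4:**
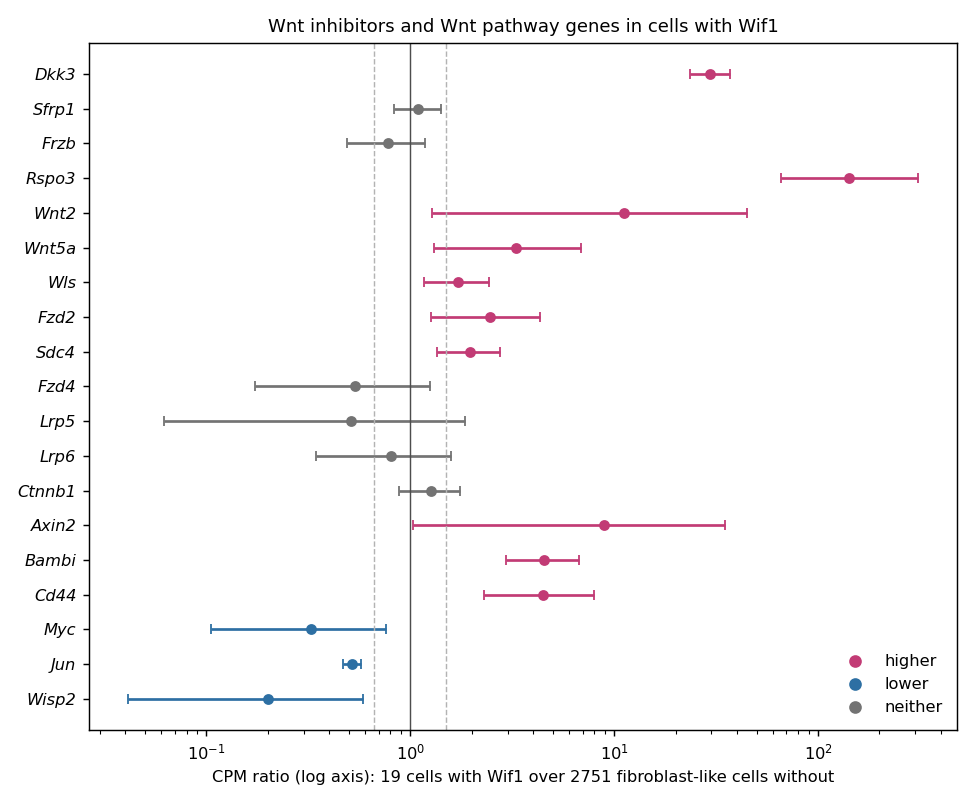
Ratio of CPM in 19 Wif1 cells over 2751 fibroblast-like cells without Wif1, on a log axis with exact conditional 95% intervals, for 3 members and selected Wnt genes; dashed lines mark 1.5-fold in each direction. Rspo3 (142) and Dkk3 (29.6) lie farthest to the right and Wisp2 (0.202) farthest to the left, with Sfrp1 (1.09) and Frzb (0.781) at the centre.

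Across the 14 clusters of at least 30 cells, the genes most like each member were taken by Pearson's r of log2(CPM + 10). The clusters share 1 library, so r is a description. For Wif1 they were Cilp (0.983), Ltbp2 (0.981), Nox4 (0.874), Rasl11b (0.864) and Dkk3 (0.854), and for Dkk3 Panx1 (0.915), Cilp (0.902), Ltbp2, Nox4 and Rasl11b (0.828). For Sfrp1 they were Tnxb (0.986), Fam20c, Loxl1, Matn2 and Aebp1 (0.981), mostly genes of matrix assembly, and for Frzb Kcnk2 (0.993), Pcdh9, Srpx2, Clmp and Tmem45a (0.981). For Sfrp2 they were Col4a6 (0.924), Gli2, Fam19a5, F3 and CT025619.1 (0.917). For Dkk2 they were H19 (0.992), Gpm6a, Npr3 (0.972), Mal and Tmem108 (0.967), of which Npr3 and Tmem108 are on the list of endocardial markers. Among the members Sfrp1 and Frzb had the highest r (0.938), then Wif1 and Dkk3 (0.854), and Dkk2 had r between -0.351 and -0.118 with the others. The 14 clusters include fibroblast-like and other clusters, and among the fibroblast-like ones Sfrp1 and Frzb had unlike orders, as given above. Wif1 and Cilp show what r over cluster means leaves out: their cluster means rise together, yet within cluster 11 Cilp was lower in the cells with Wif1.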

How the data were processed

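Single-cell 3′ RNA libraries (10x Chromium) of 3 sorted groups were measured, 1 library per group; groups were taken from the cell type labels. The submitters' processing notes name Cell Ranger, Seurat 4.0.2 and mm10. The deposited values are natural log (ln) values of 1 plus UMIs per 10000 of a cell, with genes in rows and cells in columns. Reversing the log gave whole UMIs for 100% of values, within 0.01, so raw counts of UMIs were recovered from the authors' files and summed per library, class or cluster. Genes without a row in a table were read as 0; cell filters other than those shown by the data, a minimum of 500 to 502 UMIs per cell, are not stated in the labels. The tables list 738, 895 and 209 genes with UMIs in under 3 cells (Lin28-positive cKit-positive, Lin28-positive cKit-negative, Lin28-negative cKit-negative), so rows of genes seen in 1 or 2 cells may have been left out before deposit.

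Members, gene lists and comparisons were chosen with earlier results of these data known. Cells were clustered with scanpy 1.11.5 and leidenalg 0.10.2 under Python 3.11.15 (2000 variable genes without members, Kit and Wnt genes, 30 principal components, 15 neighbours, resolution 1, and a second pass at resolution 2 for mixed clusters). Classes were named from 24 marker lists. Levels are UMIs per 1000000 (CPM) with exact Poisson intervals. Ratios have exact conditional binomial intervals, and shares have Clopper-Pearson intervals, all at 95% from scipy 1.17.1. PCR and free RNA are not covered by these intervals. A call needed 1.5-fold, an interval without 1 and 20 UMIs, and the call rule was tested on simulated data. No call was made for a class with under 50 cells in a library; such values are given side by side.

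Named genes were the members, up to 4 genes per Wnt list by ratio with Axin2, Ctnnb1, Lrp5, Lrp6 and Fzd4, the 5 genes most like each member (at least 200 UMIs), 15 per direction for Wif1 cells and 3 per cluster (from 100 CPM and 50 UMIs upward on the higher side). Genes outside this rule were named after their values were seen, among them Sfrp5, Scx, marker genes and further Wnt genes. No doublet caller was run; an alternative left out the 5% of cells with most UMIs. Other alternatives changed the scaling (TMM in a Python implementation), the UMI minimum, averaging, clustering, thinning to 1000 UMIs, the Wif1 threshold and the group set against Wif1 cells. The Wnt lists held 119 genes, of which 101 were listed in the tables.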

Additional observations from a re-analysis of the deposited data

How the results depend on the processing

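With 1 library per group no replicate could be left out, and no interval covers variation between animals. No paired analysis was possible because each group is 1 library. Of the 60 values recomputed for main counts, 53 stayed within the limits set and 7 moved; no called ratio changed direction. The Sfrp1 ratio in Wif1 cells, 1.09 and not called, became 0.292 with at least 2 Wif1 UMIs and 0.916 without the cell with most Sfrp1. A minimum of 100 UMIs left 1 of the 2 members called lower in Lin28-positive cKit-positive over Lin28-positive cKit-negative cells. Subtracting free RNA in endothelial-like cells left 1 of 3 members called, Dkk2, while Sfrp1 and Frzb were set to 0 UMIs by the subtraction itself. With at least 2 Wif1 UMIs there were 11 Wif1 cells, and after thinning 8, instead of 19. With at least 2 UMIs, 3 members were called in Wif1 cells instead of 1: Dkk3 higher, Sfrp1 and Frzb lower. The Frzb call there rests on counting the endothelial-like cell among the 11, which has no Frzb UMI. Against cells of cluster 11 only, 2 members were called, Dkk3 5.25-fold higher and Sfrp2 at least 3.09-fold lower, and 4 instead of 14 Wnt genes: Bambi (5.23), Sdc4 (1.85) and Wnt5a (3.14) higher and Wisp2 (0.0362) lower. Averaging over cells moved the Sfrp2 ratio of Lin28-positive cKit-negative over Lin28-negative cKit-negative cells to 0.253, against 0.0321 from sums, with 3 UMIs behind the Lin28-positive value. The cause of each move beyond the alternative's own construction was not tested. Few UMIs limit Wif1, Sfrp2, Dkk3 and Dkk2 in the Lin28-positive libraries, with at most 10 each per library.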
